A study of Mus musculus with 16 samples.

Results

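The genes described here are 33 genes of the blood vessel lining (endothelium) of the mouse kidney, chosen by name. They were read in a table of RNA counts with 28971 genes, from whole kidneys of mice that had lost Hes1 in the kidney tubules and of control littermates. By name, 32 of the 33 were found there. The remaining gene, Adgrf5, is listed there under its older name Gpr116 and was found by its Ensembl identifier, ENSMUSG00000056492.

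The knockout animals, here called Hes1 cKO, carried Pax8-rtTA with TRE->Cre and had both Hes1 alleles floxed (Hes1 f/f). The Pax8 promoter drives rtTA in tubule epithelium, so that doxycycline turns on Cre there and not in the endothelium. The control littermates are labelled wild type, and they drank doxycycline as well. Per the labels, all mice received 1 mg/mL doxycycline with 5% sucrose for 1 week, starting at 3 weeks of age. The titles name 7 Hes1 cKO and 9 control kidneys, and the series text gives these numbers the other way round. The comparison uses the 3 libraries named as mutant and the 4 named as wild type. No column could be matched to a single titled sample. The numbers used here (Hes1 cKO 1 to 3 and control 1 to 4) are therefore names in file order, and the sex of a library is not known from the labels. The sources do not say whether each library is a separate animal, so the p-values measure the spread between libraries.

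Endothelial cells form the inner wall of arteries, capillaries and veins, and the kidney holds several kinds of them. Glomerular capillaries filter plasma through open pores, peritubular capillaries take up what the tubules reabsorb, and the vasa recta run with the loops of the medulla. Podocytes and tubules release the growth factor VEGF-A, and the endothelium reads it through the receptor Kdr (VEGFR2), while the angiopoietin receptor Tek (Tie2) keeps the vessel wall quiet and tight. Transcription factors of the ETS family and of the SoxF group hold the endothelial program in place. In bulk RNA, fewer cells of a type and less RNA per cell cannot be told apart, and this holds for every result below.

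Total counts were 16973931 to 20420422 per library. Hes1 itself was at 17.2 to 19.8 CPM (counts scaled to the library total, after TMM normalization) in the Hes1 cKO libraries and 42.8 to 67.6 CPM in the controls. Its log2 fold change, Hes1 cKO over control, was -1.61 (SE 0.16) and its adjusted p by edgeR's test 0.00357. RNA of the adrenal gland, which sits on the kidney, was uneven: the 8 genes of an adrenal list summed to 1086 CPM in Hes1 cKO 3, 813 CPM in control 1 and 211 CPM in control 2, and to less in each of the other 4 libraries. Xist, transcribed from the inactive X chromosome of females, was at 333 to 367 CPM in 3 libraries (Hes1 cKO 3 and controls 3 and 4) and at most 0.371 CPM in the rest.

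The labelled tissue holds endothelium by these markers: all 33 genes had counts in every library and all 33 passed the filter on low counts. Their counts together were 16799 to 26940 per library. Per kilobase of exon, a scale on which genes can be compared, Plvap (ENSMUSG00000034845), which forms the diaphragms of fenestrated capillaries, had the highest mean level over the 7 libraries, at 89.9 CPM per kb. It was followed by Eng at 25.1 and Adgrf5 at 16.3 CPM per kb. The lowest levels were those of Vwf at 0.579 and Tal1 at 0.545 CPM per kb. The pan-endothelial junction genes Cdh5 and Pecam1 were close to each other, at 9.26 and 8.09 CPM per kb.

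**Figure D1:**
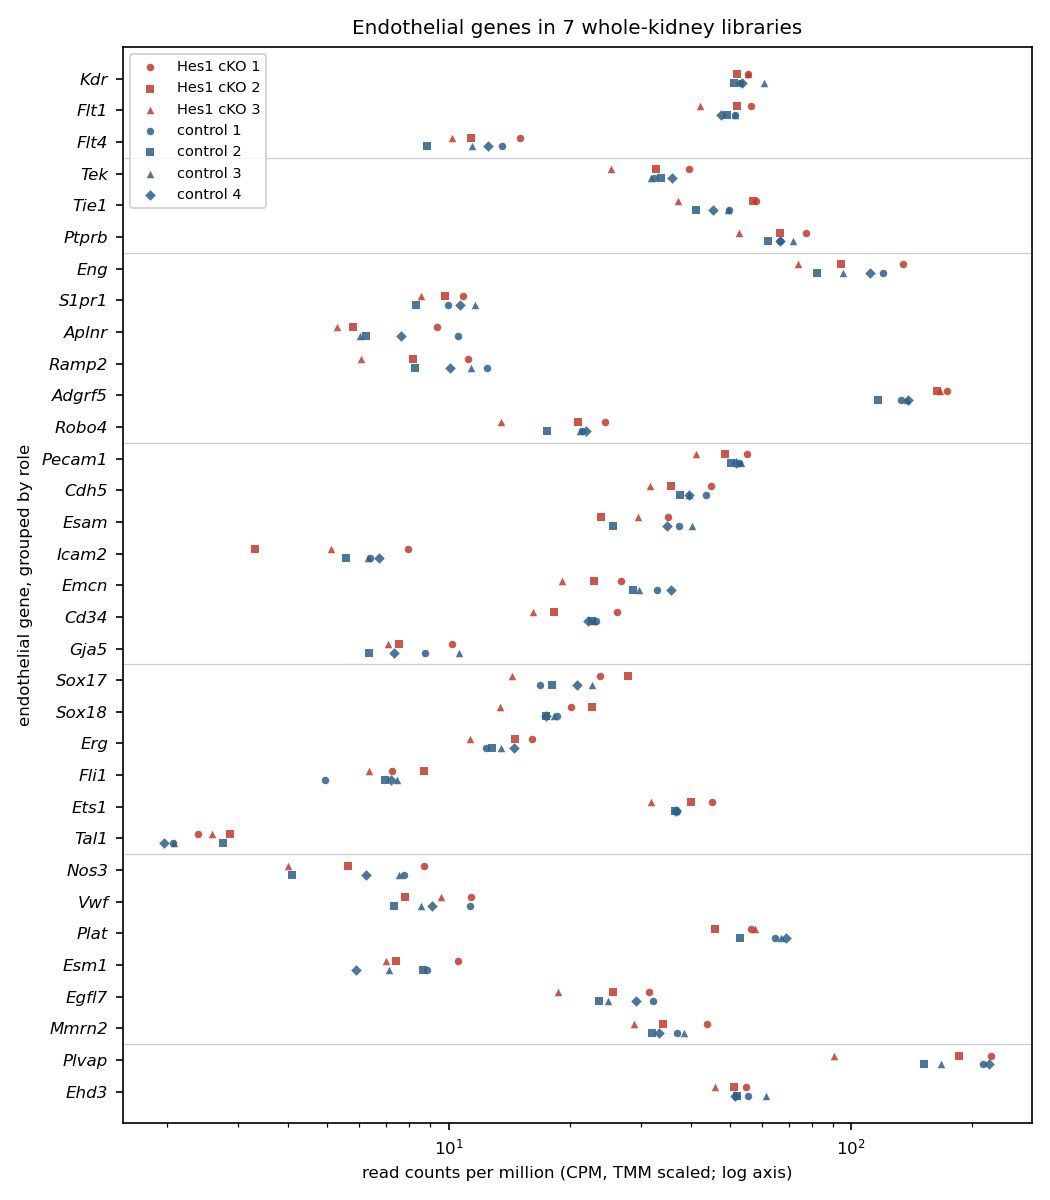
Level of each of the 33 endothelial genes (rows, grouped by role) in each library, in CPM on a log axis; red marks are the 3 Hes1 cKO libraries and blue marks the 4 control libraries. The marks of both groups overlap in 31 rows, and stand apart in Adgrf5 (Hes1 cKO higher) and Emcn (Hes1 cKO lower). Over all tested genes, 3.71% stand apart with Hes1 cKO higher and 3.29% with Hes1 cKO lower.

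The endothelial genes lay on both sides of 0, and no shift in common was seen. Of the 33 genes, 14 were higher in Hes1 cKO and 19 lower. Their log2 fold changes had a median of -0.03. Over all 15615 tested genes 48.4% were higher, and the median was -0.01. EdgeR's quasi-likelihood test called 0 of the 33 at a p under 0.05 after Benjamini-Hochberg adjustment, beside 0.339% of all tested genes. At an unadjusted p under 0.05 there were 2 of 33 (Adgrf5 and Emcn), a share close to the 5.95% of all tested genes. DESeq2's Wald test called 1 (Adgrf5), beside 0.833% of all genes, and limma-voom called 0. The 95% intervals of all 33 fold changes lay within 2 times in either direction, which held for 83.1% of all tested genes. For 23 of the 33 they lay within 1.5 times in either direction, beside 62.3%.

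**Figure D2:**
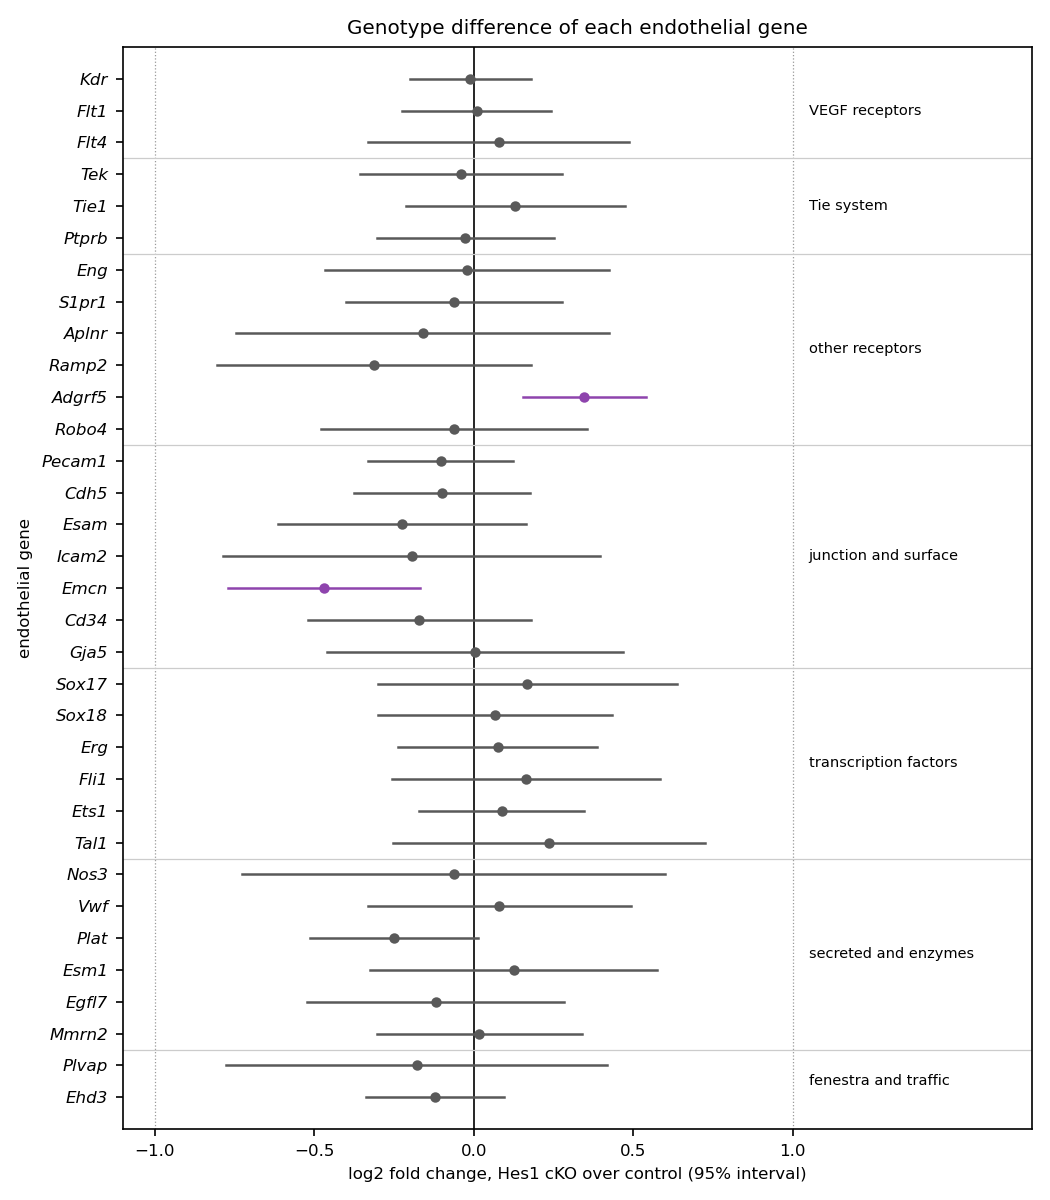
Log2 fold change of each endothelial gene, Hes1 cKO over control (point), with its 95% interval (bar); dotted lines mark a fold of 2 in either direction. Purple marks the 2 genes whose groups do not overlap, Adgrf5 at 0.35 and Emcn at -0.47. Such groups were found in 3.71% (higher) and 3.29% (lower) of all tested genes. The intervals of the other 31 include 0.

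The 3 receptors for VEGF had log2 fold changes between -0.01 and 0.08. Kdr, the main signalling receptor of the capillary endothelium, was at 55.5, 52.1 and 55.3 CPM in Hes1 cKO 1, 2 and 3, while controls 1 to 4 read 53.0, 51.3, 60.9 and 53.5 CPM. It averaged 54.3 ± 1.93 CPM in Hes1 cKO (SD, n = 3) and 54.7 ± 4.26 CPM in control (SD, n = 4), and the log2 fold change was -0.01 with a 95% interval of -0.20 to 0.18. All Hes1 cKO values lay within the control range. Flt1 (VEGFR1), which binds VEGF-A and limits how much reaches Kdr, had a log2 fold change of 0.01 (interval -0.22 to 0.24). Flt4 (VEGFR3), known from lymphatic vessels and present in kidney capillaries too, had one of 0.08 (interval -0.33 to 0.49). All 3 intervals include 0. Of the 3, 2 were higher, but 0 without Hes1 cKO 1, 1 without control 2 or without control 4 and 3 without control 3.

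The Tie receptors and their phosphatase were likewise within the spread. Tek was at 39.7, 32.7 and 25.3 CPM in Hes1 cKO, while the controls read 32.5, 33.8, 31.8 and 35.9 CPM, so the highest and the lowest library were both Hes1 cKO. Its log2 fold change was -0.04 (interval -0.36 to 0.28). Tie1, the partner receptor of Tek, was at 58.2, 57.1 and 37.1 CPM against 49.6, 41.2, 49.5 and 45.4 CPM, again with Hes1 cKO on both ends. Ptprb (VE-PTP), the phosphatase that restrains Tek, had a log2 fold change of -0.03 (interval -0.30 to 0.25). Of these 3, 1 was higher, and 3 were without Hes1 cKO 3 and 2 without control 3.

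Of the other receptors, 5 of 6 were lower, with log2 fold changes from -0.31 (Ramp2) to -0.02 (Eng), and Adgrf5 was higher. The split turned on single libraries: 4 of the 6 were higher without Hes1 cKO 3, 3 without control 1, and 2 without Hes1 cKO 2, control 3 or control 4. Eng (endoglin), a co-receptor for TGF-beta and BMP9, ranged from 73.8 CPM (Hes1 cKO 3) to 134 CPM (Hes1 cKO 1), with the 4 controls between 82.2 and 120 CPM. S1pr1, which reads sphingosine 1-phosphate and stabilises junctions, Robo4, which opposes leak, and Aplnr, the apelin receptor, had log2 fold changes of -0.06, -0.06 and -0.16, with intervals that include 0. Ramp2, which turns the receptor Calcrl into an adrenomedullin receptor, had the lowest value of the 5, with an interval of -0.80 to 0.18. Its annotated exons share 33.4% of their bases with Vps25 on the same strand, so its count is uncertain.

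Adgrf5 (chromosome 17, 43360451 to 43459557, plus strand, GRCm38) encodes an adhesion receptor of endothelium. It is also known from lung epithelium and from intercalated cells, the acid and base transporting cells of the collecting duct. Hes1 cKO 1, 2 and 3 read 173, 163 and 166 CPM, and controls 1 to 4 read 133, 117, 138 and 138 CPM. Every Hes1 cKO library lay above every control library. Adgrf5 averaged 167 ± 4.86 CPM in Hes1 cKO (SD, n = 3) and 131 ± 10.2 CPM in control (SD, n = 4), which is 1.27-fold and 0.35 on the log2 scale (SE 0.09, 95% interval 0.15 to 0.54). It was not called by edgeR (adjusted p 0.327) and was called by DESeq2 (adjusted p 0.0420). By exact permutation p was 0.0286, which is the lowest value that 35 splits can reach. Groups that do not overlap, with Hes1 cKO higher, were found in 3.71% of all tested genes.

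In the same libraries, 7 of 8 listed intercalated cell genes rose (edgeR adjusted p under 0.05, beside 0.320% of all tested genes called higher), and the median of all 8 was 1.68 on the log2 scale. The 7 are Foxi1, Slc4a9, Slc26a4, Atp6v1g3, Atp6v0d2, Insrr and Hmx2, while Slc4a1 was not called. These genes were listed with earlier results of these data known, so their rise is not independent evidence. Their summed level was 1128 to 1263 CPM in Hes1 cKO and 362 to 477 CPM in control. Their part in the level of Adgrf5 was not tested.

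Of the genes of the cell surface and junctions, 6 of 7 were lower and Gja5 was at 0.00. With 1 library left out, 0 to 2 of the 7 were higher (2 without Hes1 cKO 2 or 3, 0 without Hes1 cKO 1, control 2 or control 4). Pecam1 (CD31), the classical adhesion molecule of endothelium, was at 55.1, 48.7 and 41.2 CPM in Hes1 cKO, and the controls read 52.5, 50.2, 53.2 and 51.8 CPM. The controls lay close together, and Hes1 cKO lay on both sides of them. Its log2 fold change was -0.10 (interval -0.33 to 0.12). Cdh5 (VE-cadherin), the cadherin of endothelial junctions, was at 44.9, 35.8 and 31.6 CPM against 43.5, 37.5, 39.6 and 39.6 CPM, with a log2 fold change of -0.10. Cd34, a sialomucin that stromal and blood progenitor cells carry as well, had one of -0.17, the junction protein gene Esam one of -0.23, and the adhesion gene Icam2 one of -0.19. The fibroblast list, whose cells can carry Cd34, summed to 251 to 575 CPM in Hes1 cKO and 295 to 488 CPM in control with no gene called. Gja5 (connexin 40), which marks arterial endothelium and the renin cells of the afferent arteriole, had an interval of -0.46 to 0.47.

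Emcn (ENSMUSG00000054690, chromosome 3, 137341067 to 137432185, plus strand, GRCm38) was the surface gene that stood apart. It encodes endomucin, a sialomucin of capillary and venous endothelium that keeps leukocytes from adhering. Hes1 cKO 1, 2 and 3 read 26.8, 22.9 and 19.1 CPM, and controls 1 to 4 read 33.0, 28.8, 29.6 and 35.7 CPM. All 3 Hes1 cKO libraries lay below all 4 controls. Emcn averaged 23.0 ± 3.85 CPM in Hes1 cKO (SD, n = 3) and 31.8 ± 3.22 CPM in control (SD, n = 4), and its log2 fold change was -0.47 (SE 0.13, 95% interval -0.77 to -0.17). It was not called by edgeR (adjusted p 0.512) or DESeq2 (adjusted p 0.163), and by exact permutation p was 0.0286, again the lowest possible. Groups that do not overlap, with Hes1 cKO lower, were found in 3.29% of all tested genes.

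Of the transcription factors, all 6 were a little higher in Hes1 cKO and none was called, with log2 fold changes from 0.07 (Sox18 and Erg) to 0.24 (Tal1) and a median of 0.13. Sox17, a SoxF factor of arterial endothelium, was at 23.8, 28.0 and 14.3 CPM against 16.9, 18.1, 22.8 and 20.9 CPM. Ets1 was at 45.1, 40.0 and 31.9 CPM against 36.9, 36.5, 36.7 and 36.7 CPM, so the controls were almost equal and Hes1 cKO ranged around them. Erg and Fli1, ETS factors that maintain endothelial identity, and Tal1, shared with blood cells, had intervals that include 0. Without Hes1 cKO 1 or without Hes1 cKO 2 only 4 of the 6 were higher, and with Xist as a covariate 5. Markers of blood cells, which share Fli1, Ets1 and Tal1, overlapped between the groups. The leukocyte list summed to 84.0 to 116 CPM in Hes1 cKO and 92.7 to 114 CPM in control, and the platelet list to 9.64 to 11.5 CPM and 8.89 to 11.9 CPM. Itga2b, at a mean of 9.60 CPM over all libraries, made up most of the platelet sum. Pf4 averaged 0.424 ± 0.146 CPM in Hes1 cKO (SD, n = 3) and 0.870 ± 0.460 CPM in control (SD, n = 4). Its groups overlapped, and it was not called. The red cell list had all 4 tested genes lower in Hes1 cKO (median log2 fold change -0.79) with none called. It summed to 330 to 625 CPM in Hes1 cKO and 317 to 1570 CPM in control, with the 1570 CPM in control 2, where Tal1 was the highest of the controls at 2.75 CPM. The part of these cells in the levels of the transcription factors was not tested. None of the genes of the 3 lists in the table was at 0 in all libraries. For Sox17, 16.8% of the exon bases overlap a transcript of the opposite strand, and no source used here states whether the counting used strand.

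Secreted products and enzymes were split, 3 higher and 3 lower. This split turned on single libraries: 0 of the 6 were higher without Hes1 cKO 1, 1 without control 2, 2 without control 4 and 5 without Hes1 cKO 3. Plat (tissue plasminogen activator), abundant in glomerular endothelium, was at 56.3, 45.8 and 57.8 CPM in Hes1 cKO, and the controls read 64.6, 53.0, 67.0 and 68.9 CPM. Its log2 fold change of -0.25 (interval -0.51 to 0.02) was the farthest from 0 of the 6, and control 2 lay within the Hes1 cKO range. Nos3, the nitric oxide synthase of endothelium, had a log2 fold change of -0.06 with a wide interval (-0.73 to 0.60), and 25.2% of its exon bases overlap an antisense transcript. Vwf, the platelet-binding factor of large vessels, was at 0.08, Esm1 (endocan, a target of VEGF signalling) at 0.13, Egfl7, which lies in the vessel matrix, at -0.12, and Mmrn2, a matrix partner of endothelial lectins, at 0.02.

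The fenestra gene Plvap and the glomerular gene Ehd3 were both lower without passing the test, and 1 of the 2 was higher without Hes1 cKO 3. Plvap was at 222, 186 and 90.7 CPM in Hes1 cKO, and the controls read 213, 152, 167 and 220 CPM. The 90.7 CPM of Hes1 cKO 3 was the only value under the control range, and the log2 fold change was -0.18 (interval -0.77 to 0.42). Ehd3, a membrane traffic protein that marks glomerular capillaries, was at 54.7, 51.2 and 45.9 CPM against 55.4, 52.0, 61.5 and 51.4 CPM, a log2 fold change of -0.12 (interval -0.34 to 0.09).

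For most of the 33 genes the Hes1 cKO libraries lay far from each other, with Hes1 cKO 1 high and Hes1 cKO 3 low. Hes1 cKO 3 had the lowest level of 21 of the 33 genes and the highest of none, whereas 13.3% of all tested genes were lowest in it. Hes1 cKO 1 had the highest level of 19 of the 33, and 13.2% of all tested genes were highest in it. The endothelial genes summed to 1425, 1215 and 988 CPM in Hes1 cKO 1, 2 and 3, and to 1301, 1090, 1246 and 1282 CPM in control 1 to 4. On the log2(CPM + 1) scale, the median deviation of the 33 genes from their own means was 0.24, -0.04 and -0.27 in Hes1 cKO 1, 2 and 3, and lay between -0.13 and 0.09 in the controls. For 26 of the 33 the SD was larger among the 3 Hes1 cKO than among the 4 control libraries, which held for 42.4% of all tested genes. The median SD was 0.27 and 0.14 for the 33 genes, and 0.15 and 0.17 for all tested genes.

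**Figure D3:**
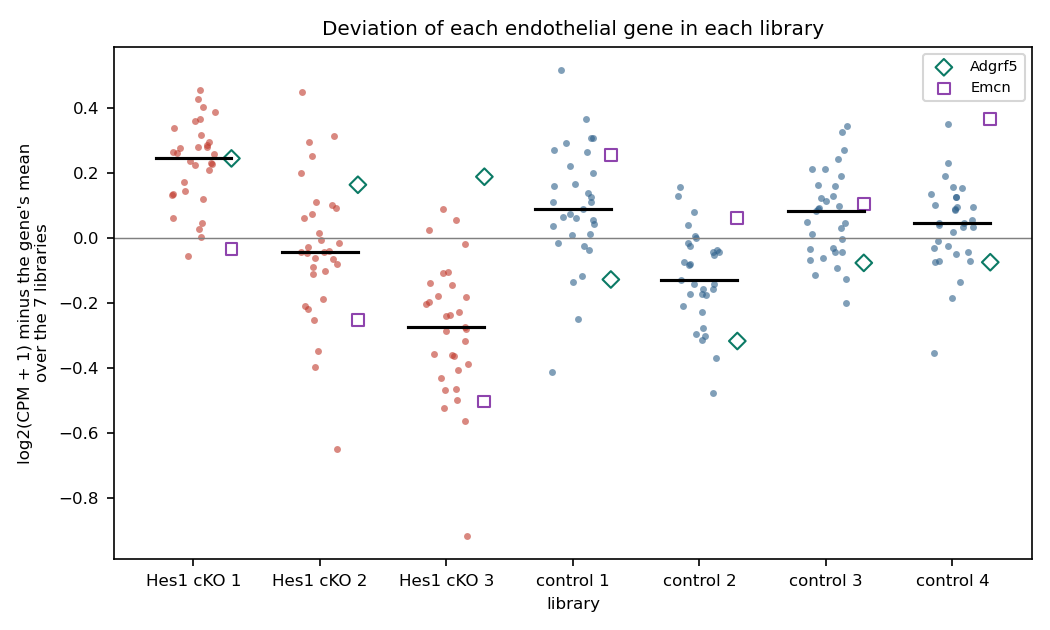
Deviation of each endothelial gene from its mean over the 7 libraries, on the log2(CPM + 1) scale, in each library; dots are genes, black lines the medians of all 33, diamonds Adgrf5 and squares Emcn. The medians run from 0.24 in Hes1 cKO 1 to -0.27 in Hes1 cKO 3, with the 4 controls between -0.13 and 0.09; Adgrf5 is above 0 in all 3 Hes1 cKO libraries and Emcn below 0.

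A separate list of 12 further pan-endothelial genes, among them Ly6c1 and Arap3, had a median deviation of -0.27 in Hes1 cKO 3 as well, and of 0.11 and 0.08 in Hes1 cKO 1 and 2. Of the lists of other cell types, some varied more among the Hes1 cKO libraries and some less. On the mean log2(CPM + 1) of a list, the SD among Hes1 cKO and among control was 0.55 and 0.23 for fibroblast, 0.31 and 0.15 for mural and 0.30 and 0.09 for leukocyte genes, beside 0.25 and 0.10 for the 33 endothelial genes. The pericyte gene Pdgfrb was at 66.6, 50.3 and 32.5 CPM in Hes1 cKO 1, 2 and 3, and the fibroblast collagen gene Col1a2 at 173, 91.1 and 79.8 CPM. The SD was smaller among Hes1 cKO for platelet (0.075 and 0.15), red cell (0.26 and 0.95) and fat genes (0.087 and 0.15). It was also smaller for intercalated (0.075 and 0.21) and principal cell genes (0.21 and 0.22). The glomerular capillary, the venous and peritubular, and the ligand and co-receptor lists went this way too. The SD was larger among Hes1 cKO for the further pan-endothelial (0.23 and 0.051) and arterial lists (0.21 and 0.067). So it was for the vessel Notch (0.27 and 0.16) and lymphatic lists (0.19 and 0.17). A larger spread among Hes1 cKO was therefore neither limited to endothelial genes nor found in every list. The part of these other cells in it was not tested. Hes1 cKO 3 also had the most adrenal RNA (1086 CPM) and was the 1 Hes1 cKO library with high Xist. Control 1, with 813 CPM of adrenal genes, had a median deviation of 0.09. Control 2, with 211 CPM, had -0.13, the lowest of the controls, with 26 of the 33 genes below their own mean. Control 3 and control 4, with high Xist, had 0.08 and 0.04. Whether adrenal RNA or sex has a part in the low values was not tested. The fits that follow give only the genotype difference. With the adrenal level as a covariate, 14 of the 33 genes were higher and the median log2 fold change was -0.02. With Xist as a covariate, 12 were higher and the median was -0.05. Without Hes1 cKO 3, 23 of the 33 genes were higher and the median log2 fold change was 0.11. Without Hes1 cKO 1, 6 were higher and the median was -0.18. No gene of the 33 was called in either fit.

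Read against the other endothelial genes of the same library, the groups of Emcn and Adgrf5 again did not overlap. On the log2 scale Emcn lay 0.41 ± 0.12 above the mean of the other members in control (SD, n = 4) and at -0.01 ± 0.02 from it in Hes1 cKO (SD, n = 3). Adgrf5 lay 2.49 ± 0.05 above that mean in control (SD, n = 4) and 2.90 ± 0.23 above it in Hes1 cKO (SD, n = 3). These were the 1 gene lower and the 1 gene higher of the 33 whose groups did not overlap on this scale. Of all tested genes, read against the mean of all 33, 0.570% were lower and 2.61% higher without overlap. That mean itself varied between libraries (SD 0.25 in Hes1 cKO and 0.10 in control), which by itself changes these shares. They therefore do not make either gene rarer than the 3.29% lower and 3.71% higher found without this step. The same counts enter as above, so this comparison is not independent evidence.

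The stretches of DNA around the transcription starts of these 2 genes, which had the highest and the lowest log2 fold change of the 33, are shown because their groups did not overlap. They come from the RefSeq promoter table, which has entries for 16 of the 33. Each holds 250 bases before and 50 after the start, on build GRCm38.p6, 5′ to 3′ on the plus strand, and capitals mark AGGAAG or its reverse complement CTTCCT, a core that ETS factors can bind. Adgrf5 has a further listed start inside the gene, without this motif.
Adgrf5, chr17:43360181-43360480: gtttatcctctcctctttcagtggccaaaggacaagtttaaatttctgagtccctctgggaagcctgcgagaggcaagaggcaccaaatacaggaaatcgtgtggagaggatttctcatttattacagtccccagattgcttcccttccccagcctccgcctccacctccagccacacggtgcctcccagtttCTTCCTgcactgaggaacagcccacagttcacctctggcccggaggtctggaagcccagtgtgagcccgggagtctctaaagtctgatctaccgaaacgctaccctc
Emcn, chr3:137340828-137341127: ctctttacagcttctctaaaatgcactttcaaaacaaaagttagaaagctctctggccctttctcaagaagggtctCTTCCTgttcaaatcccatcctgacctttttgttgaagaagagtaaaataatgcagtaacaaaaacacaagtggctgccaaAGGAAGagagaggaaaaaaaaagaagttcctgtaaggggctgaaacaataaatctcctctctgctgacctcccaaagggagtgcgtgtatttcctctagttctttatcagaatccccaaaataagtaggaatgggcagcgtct

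The Adgrf5 stretch held the motif once on the minus strand, and the Emcn stretch held it once on each strand. Over the 22 promoter entries of the 16 genes, 12 held it on either strand (54.5%), against 35.4% of 32851 promoter entries of the same length. The promoters of Kdr, Flt4, Tek, Esm1 and Tal1 held none. A match of 6 letters is a description of sequence and not a binding site, and the share was not tested.

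The other genes of the vessel wall were read from 8 lists with 63 tested genes. None was called by edgeR, DESeq2 or limma-voom, and at an unadjusted p under 0.05 by edgeR 5 were higher and 3 lower, beside 3.34% and 2.61% of all tested genes. Groups did not overlap for 3 of the 63 with Hes1 cKO higher and for 2 with it lower, beside 3.71% and 3.29% of all tested genes. Of these lists, the further pan-endothelial genes had 5 of 12 higher (median log2 fold change -0.10), glomerular capillary genes 2 of 7 (-0.09), arterial genes 2 of 6 (-0.15), venous and peritubular genes 2 of 4 (0.03) and lymphatic genes 1 of 4 (-0.22). The glomerular gene Lpl (lipoprotein lipase), which other kidney cells express too, averaged 423 ± 20.9 CPM in Hes1 cKO (SD, n = 3) and 492 ± 76.0 CPM in control (SD, n = 4). The venous factor gene Nr2f2 averaged 147 ± 15.6 CPM in Hes1 cKO (SD, n = 3) and 152 ± 11.1 CPM in control (SD, n = 4).

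The ligands and co-receptors that act on these receptors were also near 0, with 7 of 16 higher and a median log2 fold change of -0.005. Vegfa, the ligand of Kdr and Flt1, averaged 284 ± 12.5 CPM in Hes1 cKO (SD, n = 3) and 271 ± 24.6 CPM in control (SD, n = 4), with 0.07 for the log2 fold change. Nrp1, the VEGF co-receptor, averaged 83.2 ± 1.74 CPM in Hes1 cKO (SD, n = 3) and 83.2 ± 5.79 CPM in control (SD, n = 4). Vegfd, a ligand of Flt4 named after its value was seen, was lower in all 3 Hes1 cKO libraries than in any control. The same held for 3.29% of all tested genes. Vegfd averaged 4.39 ± 0.73 CPM in Hes1 cKO (SD, n = 3) and 6.07 ± 0.44 CPM in control (SD, n = 4), without a call (edgeR adjusted p 0.719).

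Genes of Notch signalling in vessels had 5 of 7 higher and none called, and their median was 0.40 on the log2 scale. Notch1 was at 46.7, 43.4 and 28.2 CPM in Hes1 cKO, while the controls read 30.4, 22.8, 29.8 and 27.8 CPM, so that only Hes1 cKO 3 lay within the control range. The difference was 0.51 on the log2 scale (SE 0.17) with an edgeR adjusted p of 0.693, and tubule cells express Notch1 too. Without the 3 libraries richest in adrenal RNA, 2 against 2, edgeR called Notch1 higher (adjusted p 0.0379) and the lymphatic factor Prox1, which tubule cells also express, lower (adjusted p 0.0221). That fit was chosen after seeing the data. It called 220 of 15602 tested genes, beside 53 of 15615 in the main fit. Notch4, the receptor most restricted to endothelium, had a log2 fold change of -0.07, and Dll4, the ligand of arterial and tip cells, one of 0.42. Mural genes, of the pericytes and smooth muscle around vessels, had 6 of 7 higher with a median of 0.22. Of the mural genes Cspg4 was at 0.05, Myh11 at 0.39 and Pdgfrb at -0.04 on the log2 scale, none called.

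Sele (E-selectin), which activated endothelium shows to leukocytes and which was named after its value was seen, had the largest difference of the 63 genes, at a very low level. It had 17, 20 and 14 counts in Hes1 cKO 1, 2 and 3, and 3, 5, 5 and 5 counts in control 1 to 4. The groups did not overlap, with Hes1 cKO higher, which held for 3.71% of all tested genes. Sele averaged 0.904 ± 0.083 CPM in Hes1 cKO (SD, n = 3) and 0.246 ± 0.049 CPM in control (SD, n = 4), a difference of 1.85 on the log2 scale (SE 0.34). Its adjusted p was 0.0928 by edgeR and 0.100 by limma-voom, and DESeq2 gave none. Over the alternatives that gave one, the adjusted p was 0.0895 to 0.548. Selp, the other selectin of activated endothelium, likewise named after its values were seen, had no more than 6 counts in any library and was not tested.

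**Figure D4:**
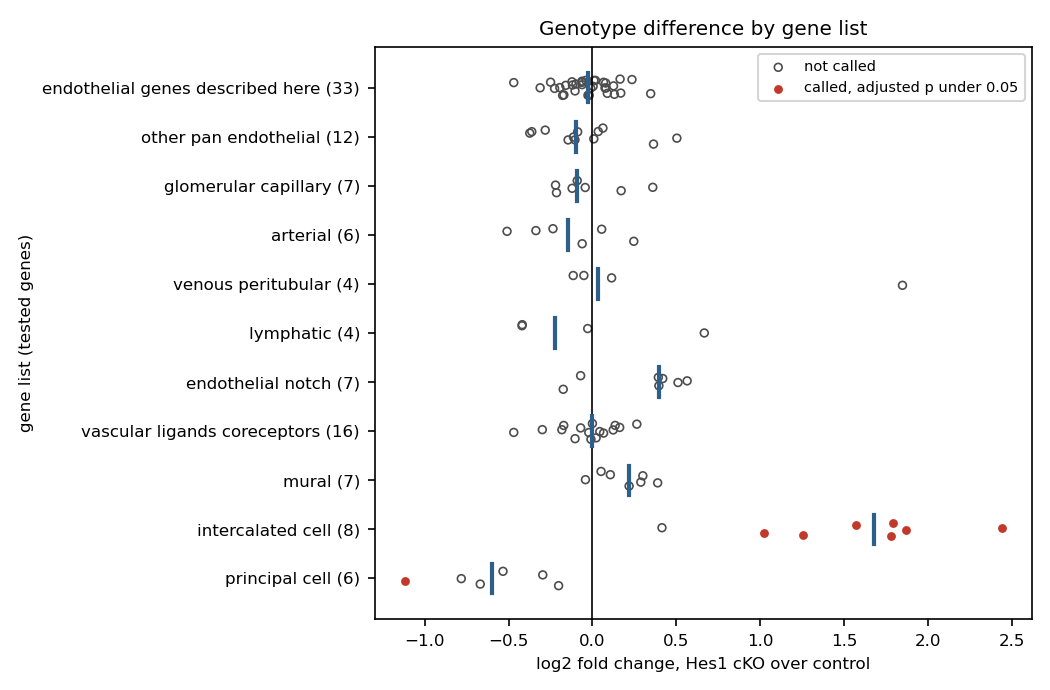
Log2 fold change (Hes1 cKO over control) of each tested gene, by list, with the number of genes in brackets; blue bars are medians, filled red points are called at an edgeR adjusted p under 0.05. The endothelial genes and the 8 other vascular lists hold no filled point, beside 7 in the intercalated and 1 (Hsd11b2, lower) in the principal cell list. Over all 15615 tested genes, 50 were called higher and 3 lower. The lists were chosen with earlier results of these data known.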

How the data were processed

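RNA of whole kidneys was sequenced as 150 bp pairs. The authors deposited whole-number read counts per gene without normalization. The submitters' processing notes name FastQC, STAR, DESeq2 and the builds mm10 and GRCm38; for the counting program, strand setting and annotation, nothing is stated there. A further table has 9 columns whose codes show no genotype, and these were not used. The endothelial genes and all lists were chosen with earlier results of these data known.

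Genes were matched by Ensembl identifier in GENCODE M21 (73 identifiers of the table are absent from it), which also gave positions and exon lengths. Of 28971 genes, 15615 passed filterByExpr (minimum count 10). Libraries were scaled by TMM and compared by edgeR's quasi-likelihood test (edgeR 4.0.16, R 4.3.3), with Benjamini-Hochberg adjustment over all tested genes and a threshold of 0.05. Standard errors were computed as the absolute log2 fold change over the square root of the test's F statistic. Intervals use them with the fit's degrees of freedom, so both are approximate. DESeq2 1.42.0 and limma-voom (limma 3.58.1) were alternatives. The exact two-sided permutation test ran over 35 splits on log2(CPM + 1). Reads carry no molecular identifiers. Scripts were tested on simulated data. Within each group, the counts of any pair of libraries differed by much more than sampling (chi-square over its degrees of freedom, 11.9 to 41.1). No pair was therefore treated as the same library sequenced again, and all were counted as separate samples. This check cannot show whether the libraries came from separate animals. Named are all 33 endothelial genes and the called genes of the other lists; from some of those lists, genes among the 3 with the highest mean CPM are named too, and other lists are given by counts or sums. Vegfd, Sele, Selp and Gpihbp1 were named after their values were seen. The table gives no name for 4690 genes.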

Additional observations from a re-analysis of the deposited data

Results flagged for a closer look

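In the 4 control libraries, 97 genes (the endothelial genes, Hes1 and the tested genes of the other vascular lists) were examined for a library far from the others by Dixon's limit of 0.829. Chance puts about 1 in 20 such groups past it, and 5 were found. With 3 libraries, Hes1 cKO was too small for this rule.

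Robo4 was lowest in control 2, at 17.5 CPM against 21.2 to 21.9 CPM in the other controls (ratio of gap to range 0.838). Tal1 was highest in control 2, at 2.75 CPM against 1.97 to 2.09 CPM (0.847). Arap3, of the further pan-endothelial list, was lowest in control 2 (0.890), and Gpihbp1, of the same list, was highest in control 1, at 5.62 CPM against 2.47 to 3.00 CPM (0.831). Sele was lowest in control 1 (0.906), where the difference is 3 counts against 5 in each other control.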

How the results depend on the processing

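The adrenal covariate, the fit without the 3 libraries with most adrenal RNA (Hes1 cKO 3, control 1 and control 2) and the covariate from the further pan-endothelial list were chosen after seeing the data. Genes called over all tested genes numbered 53 and became 102 without a low-count filter, 130 with DESeq2, 220 without the 3 libraries (2 against 2) and 25 (without Hes1 cKO 2) to 47 when 1 library was left out, with 27 without Hes1 cKO 1. The number of endothelial genes called was 0 in 17 of the 18 alternatives and 1 (Adgrf5) with DESeq2. Those at an unadjusted p under 0.05 numbered 2 to 6 when 1 library was left out (6 without Hes1 cKO 1, 5 without Hes1 cKO 3, 4 without control 2) and 4 without the 3 libraries. The share of all tested genes at this level is not given for these fits. The counts are therefore not a result about endothelial genes. Endothelial genes higher in Hes1 cKO numbered 6 (without Hes1 cKO 1) to 23 (without Hes1 cKO 3), and 22 without the 3 libraries. The fit without the 3 libraries called 220 of 15602 tested genes. Among them were 2 genes of the other vascular lists, Notch1 (log2 fold change 0.65, edgeR adjusted p 0.0379) and Prox1 (-0.84, 0.0221), which tubule cells express too. Adgrf5 kept its direction in all 18 alternatives, at log2 fold changes of 0.28 to 0.37 and adjusted p-values of 0.0420 (DESeq2) to 0.869 (edgeR without Hes1 cKO 2). Emcn kept its direction too, at -0.60 to -0.35 and adjusted p-values of 0.163 (DESeq2) to 0.9997 (edgeR without Hes1 cKO 2). Both genes were singled out because their groups do not overlap, and every alternative uses the same counts. A kept direction was therefore nearly fixed in advance and is not further evidence. The cause of the changes between alternatives was not tested. No paired analysis was possible because the columns carry no replicate number of the titles. Sele and Tal1 are limited by depth.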
